A study of Mus musculus with 7 samples.

Results

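The glucocorticoid receptor Nr3c1 and 8 genes known as its targets, Tsc22d3, Fkbp5, Per1, Sgk1, Dusp1, Errfi1, Zfp36 and Zbtb16, were followed in mouse leukemia cells exposed to BRD7116, a small molecule known here by its code name. The genes were chosen by name, with the levels of BRD7116 and DMSO arrays in this series already known, so their own values are given as a description without a test. Of the 9 genes, 8 had a probe on the array, with 10 probes among 25697 in all. Tsc22d3 and Per1 had 2 probes each, and no probe carried the symbol Zbtb16. The cells were mouse leukemia stem cells by their label, taken fresh and kept in suspension for 6 h in medium with 10% fetal bovine serum, at 250000 cells a well. The BRD7116 group received 5 µM of the compound in 0.2% DMSO and was read on 5 arrays. The control group received 0.2% DMSO without the compound and was read on 2 arrays. The sources used here do not give the strain, the age or the lesion behind the leukemia, and nothing states that replicates were separate cultures or animals, so the spread between arrays may be technical.

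The receptor is a transcription factor that waits in the cytoplasm in a complex with Hsp90 and immunophilins. On binding cortisol or corticosterone it moves to the nucleus, where it binds an inverted repeat of the arm AGAACA with a gap of 3 bases. In blood cells glucocorticoids are known to raise a compact set of genes that restrain inflammatory signalling and to hold down cytokine and chemokine genes. Among the targets followed here, Tsc22d3, Fkbp5 and Per1 are commonly used as readouts of the hormone, which does not make them specific to it. Dusp1, Zfp36, Sgk1 and Errfi1 are known to respond to growth factor, stress and MAP kinase signals too.

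Promoter windows are shown for Sgk1, which holds the full receptor repeat, and for Dusp1 and Zfp36, whose BRD7116 arrays all lay above both controls. They were taken from RefSeq (build GRCm38.p6) and span 250 bases before to 50 bases after an annotated start, read 5′ to 3′ on the gene's strand. Windows were used for 7 of the 9 genes, 16 in all. The only one of the 16 with the full repeat, AGAACA then 3 bases then TGTTCT, was the fifth of 6 annotated Sgk1 starts, at chr10:21993640-21993939 on the plus strand, and the repeat is in capitals below. The same repeat, searched on both strands, was in 3 of 32851 windows of this length (0.00913%). The Dusp1 window lies at chr17:26508423-26508722 on the minus strand and the capitals mark TGACG on either strand, which there includes the palindrome TGACGTCA. The Zfp36 window lies at chr7:28379179-28379478 on the minus strand and the capitals mark GGGCGG, found on the opposite strand.
Sgk1: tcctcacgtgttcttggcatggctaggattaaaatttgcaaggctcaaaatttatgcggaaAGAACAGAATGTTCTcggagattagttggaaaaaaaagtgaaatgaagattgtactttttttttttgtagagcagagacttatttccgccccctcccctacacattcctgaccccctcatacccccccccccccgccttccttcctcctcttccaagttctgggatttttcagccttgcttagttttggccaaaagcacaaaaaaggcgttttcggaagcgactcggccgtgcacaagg
Dusp1: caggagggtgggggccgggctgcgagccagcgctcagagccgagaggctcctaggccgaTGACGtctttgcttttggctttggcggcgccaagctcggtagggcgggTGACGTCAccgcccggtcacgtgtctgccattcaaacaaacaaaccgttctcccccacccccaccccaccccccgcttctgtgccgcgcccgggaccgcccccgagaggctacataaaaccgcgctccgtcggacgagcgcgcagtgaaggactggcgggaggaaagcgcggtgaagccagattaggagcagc
Zfp36: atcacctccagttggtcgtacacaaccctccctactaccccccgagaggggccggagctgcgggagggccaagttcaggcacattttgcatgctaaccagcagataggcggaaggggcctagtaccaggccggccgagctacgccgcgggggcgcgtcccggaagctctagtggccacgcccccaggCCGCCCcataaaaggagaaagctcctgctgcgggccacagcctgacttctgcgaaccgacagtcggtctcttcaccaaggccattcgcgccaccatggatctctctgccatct

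TGACGTCA, the binding site of CREB and ATF factors, was in 1.79% of all windows, in the Dusp1 window and in the second of 2 Errfi1 windows. Its arm TGACG was in 20.8% of all windows, among them both Per1 windows. The single arm AGAACA on either strand was in 19% of all windows. Among the windows used it was in 3 of the 6 Sgk1 windows and 1 of the 3 Tsc22d3 windows. GGGCGG was in 35.7% of all windows, and TGANTCA, the AP-1 site, in 7.81%. None of the windows of these genes held TGANTCA. The array does not tell which start a transcript used, and a match is a description of letters, not of a bound site.

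The 7 arrays lay on 3 chips, numbered here 1 to 3, and chip 1 gave the weakest signal. On chip 1 were the first BRD7116 replicate and the second DMSO replicate, with 4585 and 4412 probes at a detection p under 0.05, against 6749 to 8451 on the other arrays. Chip 2 carried the second BRD7116 replicate and the first DMSO replicate, and chip 3 carried BRD7116 replicates 3 to 5 alone. Chip 1 therefore supplied 1 of the 2 controls, and each difference below is also given within chips 1 and 2. Of 11 early myeloid and leukemic markers with a probe, 7 were measured, and Cd34, Flt3, Hoxa10 and Myc were below detection on every array. Of 6 red cell precursor markers with a probe, 4 (Alas2, Epor, Hbb-bt and Klf1) were detected on no array. The other 2, both measured, were lower with BRD7116 on every array than on either control and within both chips. Their differences were -0.66 for Tfrc, the transferrin receptor, and -0.92 for Hba-a1, alpha globin, each with an adjusted p of 0.689 in limma, and their part in the results below was not tested. Levels are background-corrected, quantile-normalized log2 values unless a deposited intensity is named.

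The receptor itself was at the edge of detection. Nr3c1 (probe ILMN_2740568) had deposited intensities of 161.9, 251.1, 127.9, 153.1 and 197.2 on BRD7116 replicates 1 to 5 and of 189.0 and 191.8 on the controls. It was detected on 1 of 7 arrays, BRD7116 replicate 2, and the groups overlapped. Its normalized levels were 5.16 ± 0.39 (SD, n = 5) with BRD7116 and 5.25 ± 0.16 (SD, n = 2) with DMSO. The difference was -0.22 within chip 1 and 0.62 within chip 2, and no level of receptor transcript can be set from a probe this close to background. Here and for every gene below, fewer cells of a type and less RNA per cell cannot be told apart in these bulk samples.

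**Figure D1:**
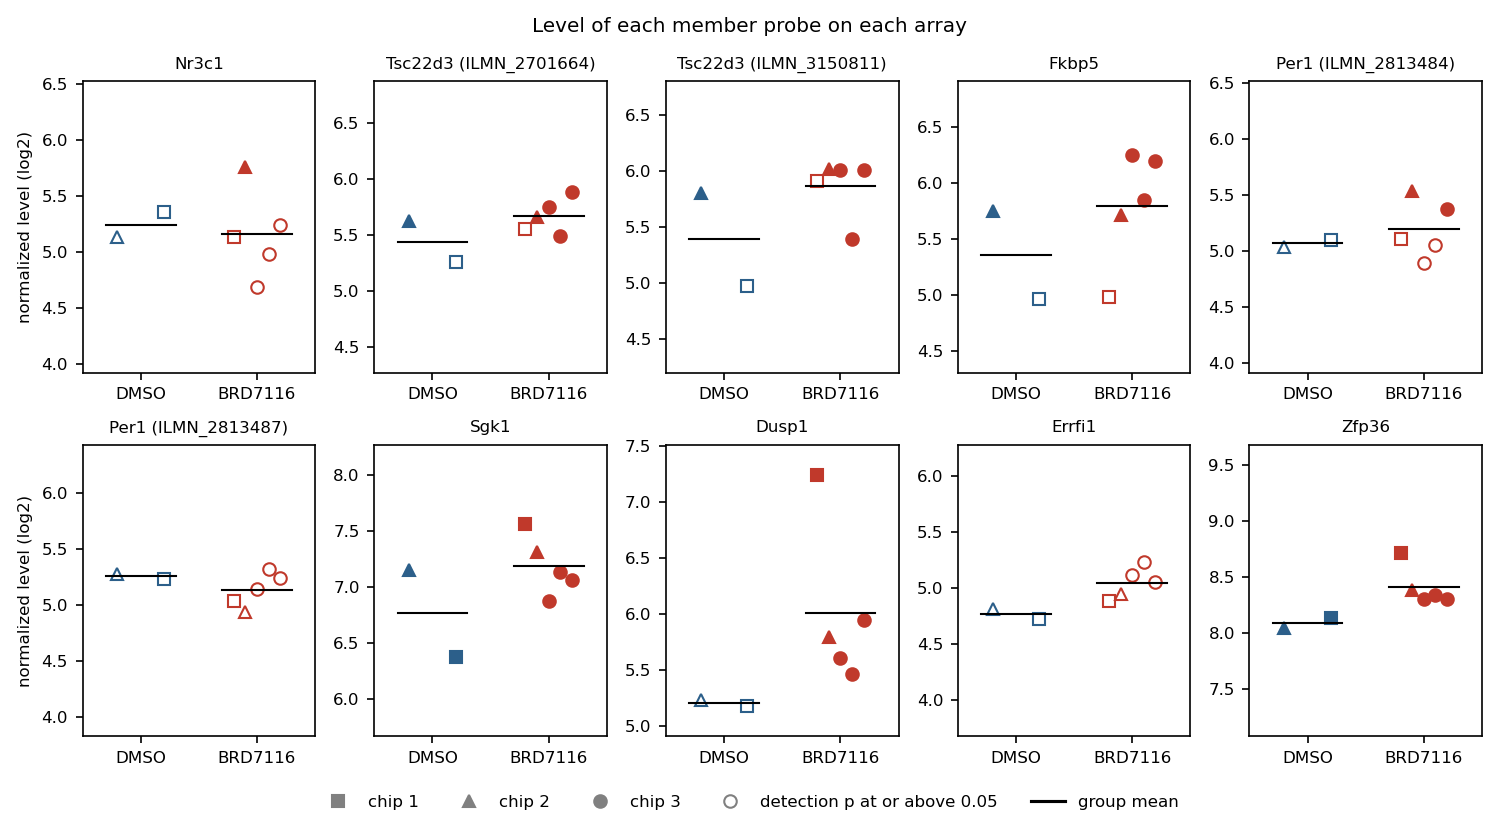
Normalized log2 level of each of the 10 probes on each array, by group, with the group mean as a line. Every panel spans the same log2 range, open symbols mark arrays on which the probe was not detected, and the panels of Dusp1, Zfp36 and Errfi1 show all 5 BRD7116 arrays above both controls.

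Zfp36 was higher on every BRD7116 array than on either control. It encodes tristetraprolin, which binds AU-rich elements and speeds the decay of cytokine mRNAs. Its probe (ILMN_3162407) had deposited intensities of 263.5, 667.1, 567.7, 411.6 and 712.1 on BRD7116 replicates 1 to 5, and of 431.0 and 246.6 on DMSO replicates 1 and 2. The raw brightness follows the chip, so the rank within each array is the plainer reading. Zfp36 stood at the 94.3 to 95.7 percentile of all probes on the BRD7116 arrays and at the 93.2 and 93.6 percentile on the controls. The groups did not overlap.

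The normalized Zfp36 levels with BRD7116 were 8.72, 8.38, 8.31, 8.35 and 8.31, a mean of 8.41 ± 0.17 (SD, n = 5). Both DMSO levels were lower, at 8.05 and 8.13, a mean of 8.09 ± 0.06 (SD, n = 2). Quantile normalization keeps the order of the ranks, so this separation restates that of the percentiles. The difference was 0.32 on the log2 scale (standard error 0.19), a 1.25-fold higher mean. It was 0.59 within chip 1 and 0.34 within chip 2. Leaving out single arrays gave 0.25 to 0.37, and the authors' deposited values gave 0.18. The probe was detected on all 7 arrays. Under median scaling the groups overlapped.

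Dusp1 encodes a nuclear phosphatase that switches off p38, JNK and ERK and is a mediator of glucocorticoid action on inflammation. Its probe (ILMN_2622983) was detected on all 5 BRD7116 arrays and on neither control. That pattern was shown by 41 of 25697 probes (0.16%). The deposited intensities were 193.1, 253.4, 179.4, 170.4 and 249.3 with BRD7116, and 193.4 and 186.5 with DMSO. Brightness alone did not separate the groups. Rank did, from the 74.8 to the 89.4 percentile with BRD7116 and at the 67.5 and 64.5 percentile with DMSO.

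After normalization Dusp1 was at 7.25, 5.80, 5.61, 5.46 and 5.95 with BRD7116, a mean of 6.01 ± 0.71 (SD, n = 5). The controls were at 5.23 and 5.18, a mean of 5.20 ± 0.04 (SD, n = 2), where the probe was not well above background. Because both controls give a bound only, Dusp1 was at least 1.15-fold higher, set against a floor of 5.81, the mean over the controls of the higher of the probe's own level and the lowest detected level. That bound rests on BRD7116 replicate 1: the other 4 arrays had a mean of 5.71, below the floor, so without it no bound above 1 remains. The difference of the measured means was 0.81 (standard error 0.45). BRD7116 replicate 1, on the weak chip, stood far above the other 4 arrays, and without it the difference was 0.50. Within chip 1 it was 2.07, although the deposited intensities there differed by a ratio of only 1.04, and within chip 2 it was 0.56 with an intensity ratio of 1.31. The authors' deposited values gave 0.24. Every BRD7116 array was above both controls there too, and over all tested probes 491 were above and 441 below with either set of values. Such a separation restates the ranks and is no further support.

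**Figure D2:**
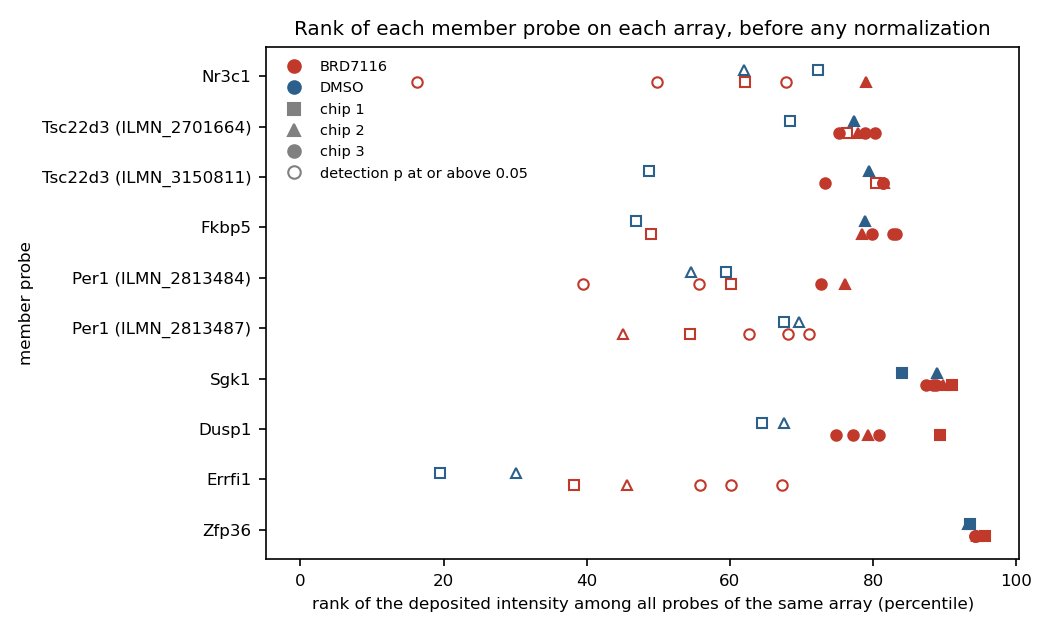
Rank of each probe's deposited intensity among all probes of the same array, as a percentile, with colours for the groups, shapes for the chips and open symbols where the probe was not detected. For Dusp1 all 5 BRD7116 arrays lie at the 74.8 percentile or above and the controls at 67.5 and 64.5, and for Zfp36 the controls lie at 93.2 and 93.6, below every BRD7116 array.

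Sgk1, a kinase that acts on ion channels and on FOXO factors and carries the full repeat shown above, was detected on all 7 arrays (ILMN_1213954). Its normalized levels were 7.57, 7.32, 6.88, 7.13 and 7.06 with BRD7116 and 7.16 and 6.38 with DMSO. The groups overlapped, since DMSO replicate 1 lay above 3 of the BRD7116 arrays. The mean difference was 0.42 (standard error 0.27). It rested on DMSO replicate 2, the control of the weak chip: without that array the difference was 0.03, and without DMSO replicate 1 it was 0.82. Within chip 1 it was 1.19 and within chip 2 it was 0.16, with deposited intensities of 201.8 against 203.3 on chip 1 and of 413.7 against 304.6 on chip 2. The arrays outside chip 1 gave -0.06.

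The classical readouts of the hormone were each undetected on some arrays. Tsc22d3 encodes GILZ, a leucine zipper protein that restrains NF-kB and AP-1, and its 2 probes are annotated to different transcripts. Probe ILMN_3150811 was at 5.91, 6.02, 6.01, 5.40 and 6.01 with BRD7116 and at 5.81 and 4.98 with DMSO. Probe ILMN_2701664 was at 5.55, 5.66, 5.75, 5.48 and 5.88 with BRD7116 and at 5.62 and 5.25 with DMSO. On both probes DMSO replicate 2 was the lowest array and the groups overlapped. Each probe was detected on 4 of the 5 BRD7116 arrays and on 1 of the 2 controls.

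The Tsc22d3 differences were 0.48 (standard error 0.28) for ILMN_3150811 and 0.23 (standard error 0.20) for ILMN_2701664. Within chip 2 they were 0.22 and 0.04. On chip 1 neither array detected either probe, and the deposited intensities there had ratios of 0.983 and 0.904, so no difference is read from that pair. Leaving out DMSO replicate 2 brought them to 0.06 and 0.05, while leaving out DMSO replicate 1 brought them to 0.89 and 0.41. The size of the difference on both probes thus rested on the control of the weak chip.

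Fkbp5 encodes FKBP51, an Hsp90 co-chaperone that lowers the receptor's affinity for hormone and closes a negative feedback loop. Its probe (ILMN_2718266) was at 4.98, 5.71, 6.25, 5.85 and 6.19 with BRD7116 and at 5.75 and 4.96 with DMSO. It was detected on 4 of 5 BRD7116 arrays and 1 of 2 controls, and both undetected arrays were those of chip 1. The mean difference was 0.44 (standard error 0.38), while the chip 2 pair, detected on both arrays, had a difference of -0.04. The chip 1 pair, undetected on both arrays, gives no reading. The arrays above both controls were the 3 of chip 3, which held no control, so chip and compound cannot be told apart there. Without DMSO replicate 2 the difference was 0.05, and without DMSO replicate 1 it was 0.84.

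Per1, a repressor arm of the circadian clock and an early glucocorticoid target, was near background on both probes. ILMN_2813484 was detected on BRD7116 replicates 2 and 5 and no control, and its group means were 5.19 ± 0.26 (SD, n = 5) and 5.07 ± 0.04 (SD, n = 2). ILMN_2813487 was detected on no array, with means of 5.14 ± 0.15 (SD, n = 5) and 5.26 ± 0.03 (SD, n = 2). The probes differed in sign, at 0.12 and -0.12, and no fold is given for either. Errfi1, which encodes the EGF receptor inhibitor MIG6, was also detected on no array. Its means were 5.04 ± 0.14 (SD, n = 5) and 4.77 ± 0.06 (SD, n = 2), and though all 5 BRD7116 arrays lay above both controls, no fold can be given for a probe below detection in both groups.

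**Figure D3:**
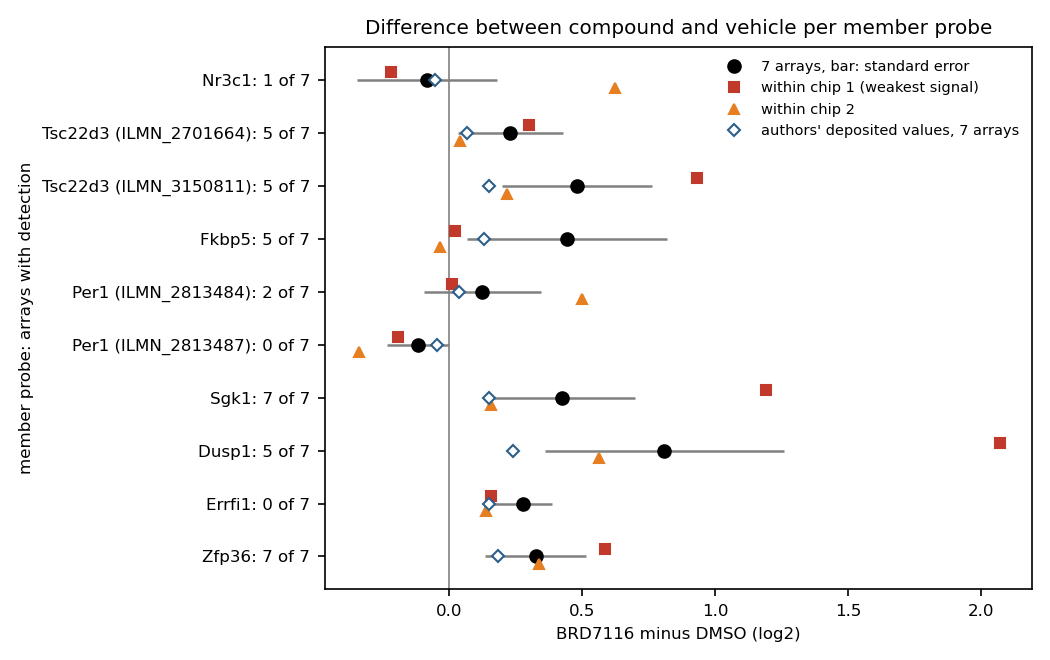
BRD7116 minus DMSO on the log2 scale for each probe, over the 7 arrays (black, bar of 1 standard error), within chip 1, within chip 2 and with the authors' deposited values. The axis label gives the number of arrays with detection. Zfp36 and Dusp1 are to the right of 0 in each of the 4 readings. So are Sgk1, both Tsc22d3 probes, Per1 probe ILMN_2813484 and Errfi1, which was detected on no array. For Fkbp5 the chip 2 pair lies at -0.04. The chip 1 points of Nr3c1, Tsc22d3, Fkbp5, Per1 and Errfi1 are differences between undetected arrays.

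Across the array, 8613 probes were detected on at least 2 arrays and tested with limma, among them 7 of the 10 glucocorticoid probes. No probe passed an adjusted p of 0.05 (0%), and at an unadjusted p under 0.05 there were 278 higher and 296 lower. Without DMSO replicate 1 the count past the threshold was 753. Of the 7, 2 had every BRD7116 array above both controls, Dusp1 and Zfp36, where 5.7% of all tested probes did. None had every BRD7116 array below both controls, where 5.12% did. Of the 7, 6 were higher with BRD7116 on both chip pairs, against 27.7% of all tested probes. Among the 6 were both Tsc22d3 probes and ILMN_2813484, undetected on both chip 1 arrays, so their chip 1 differences give no reading. The median difference of the 7 was 0.42, against 0.07 for all tested probes, and all 7 had a higher mean, as did 57.4% of all tested probes. These counts describe genes chosen with this contrast known, and Dusp1 and ILMN_2813484 entered through the BRD7116 arrays alone, so nothing is read from them. Without DMSO replicate 2 the median was 0.06. Under median scaling, where the median difference over all tested probes was 0.53, it was 0.13 relative to that median, with ILMN_2701664 at -0.13 and ILMN_2813484 at -0.36.

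Genes with the most similar profile were sought for the brightest probe and for the probe with the largest difference, over the 7 arrays and the 5694 probes detected on at least 5. Nearest to Zfp36 were Surf2, Cers2 and Gtpbp2, with root mean square differences of 0.082, 0.082 and 0.085 between mean-centred log2 profiles, against a median of 0.38 over all probes compared. Nearest to Dusp1 were Tube1, Cdk2 and Arhgap19, with 0.16, 0.196 and 0.199 against a median of 0.74. For each of these neighbours, as for Dusp1 and Zfp36, BRD7116 replicate 1 on the weak chip was the highest BRD7116 array. Tube1 stood there at 7.04 against 6.03 for the next array, Cdk2 at 6.83 against 5.78 and Arhgap19 at 7.27 against 5.69. How far the likeness rests on that array was not tested.

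Genes of the machinery around the receptor did not pass the test in either direction. Of 28 genes of the receptor complex, of ligand enzymes and of cofactors, 16 were measured, 9 with a higher and 7 with a lower mean, and 0 passed in limma, with 1 at an unadjusted p under 0.05. Their median difference was 0.04, against 0.07 for all tested probes. Of the 16, 2 were detected on BRD7116 arrays only and entered through that group alone. Bag1, a co-chaperone that binds the receptor, had -0.35 (standard error 0.20, adjusted p = 0.689) and Hspa8, the constitutive Hsp70, had 0.01 (standard error 0.20, adjusted p = 0.984). Hsd11b1, the enzyme that regenerates active corticosterone, was detected on all 7 arrays and had -0.23 (standard error 0.25, adjusted p = 0.78), and 0.075 relative to all probes under median scaling. It was named after its value was seen, and had -0.06 within chip 1 and 0.15 within chip 2. The gene at an unadjusted p under 0.05 was Med1, a Mediator subunit that contacts nuclear receptors, likewise named after its value was seen. It was detected on both controls, at 6.14 ± 0.94 (SD, n = 2), and on no BRD7116 array, where the probe was not well above background at 5.09 ± 0.15 (SD, n = 5). The difference was -0.39 without DMSO replicate 2 and -1.72 without DMSO replicate 1, where it passed (adjusted p = 0.00981).

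Other genes known to be induced by glucocorticoids had means on both sides of 0. Of 43 listed, 27 were measured, 15 with a higher and 12 with a lower mean, with a median of 0.13. Of the 27, 5 were detected on BRD7116 arrays only, each with a higher mean. They entered through that group alone, so the 15 is not read as a rise. In limma 0 passed, with 3 at an unadjusted p under 0.05. Mt1, metallothionein 1, which glucocorticoids and metals both induce, had a difference of 1.46 (standard error 0.17, adjusted p = 0.189). Its mean was 13.73 ± 0.06 (SD, n = 5) with BRD7116 and 12.27 ± 0.12 (SD, n = 2) with DMSO, and the groups did not overlap. Mt1 missed the threshold here but passed it, in the same direction, under 10 of 25 alternative settings, the authors' deposited values among them (adjusted p = 0.00146 in limma). Over the 25 its difference was 1.05 to 2.23 and its adjusted p ran from 1.24e-05 to 0.9999, the highest without DMSO replicate 2. The others at an unadjusted p under 0.05, named after their values were seen, were Ncoa7 with -1.14 and Tgfbr3 with -0.86 (adjusted p = 0.689 for each). Ncoa7 was detected on 5 of the 7 arrays and Tgfbr3 on only 2, near background. Their sizes rested on DMSO replicate 2: leaving it out gave -0.40 and -0.27, while dropping DMSO replicate 1 gave -1.87 and -1.44, and both passed (adjusted p = 0.0489 and 0.0401). Lcn2, a neutrophil iron carrier, had -0.17 (standard error 0.17, adjusted p = 0.765), and 0.11 relative to all probes under median scaling. Within chips 1 and 2 the list medians were 0.01 and -0.05.

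Genes known to be held down by glucocorticoids, mostly cytokines, chemokines and adhesion molecules, were mostly below detection. Of 20 with a probe, 13 were detected on no array and 6 were measured. All 6 had a higher mean. Of these, 3 were detected on BRD7116 arrays only and entered through that group alone, so nothing is read from the count. In limma 0 passed, with 2 at an unadjusted p under 0.05. Vcam1, an adhesion molecule, had 1.08 (standard error 0.40, adjusted p = 0.689), with 1.95 within chip 1 and 0.29 within chip 2. Vcam1 was detected on 5 of 5 BRD7116 arrays and 1 of 2 controls. The difference was 0.23 without DMSO replicate 2, and 1.94 without DMSO replicate 1. Ccl4, a macrophage chemokine, had 1.03 (standard error 0.27, adjusted p = 0.689), with 0.98 within chip 2. Its chip 1 pair, undetected on both arrays, gives no reading. It was detected on 4 of 5 BRD7116 arrays and 1 of 2 controls, and all 5 BRD7116 arrays lay above both controls. Ccl4 was 1.34 without DMSO replicate 1. The list median of 0.51 became 0.003 relative to all probes under median scaling, where 3 of 6 were higher. The 4 measured monocyte and macrophage markers had summed log2 levels of 24.8 to 26.6 with BRD7116 and of 24.0 and 25.9 with DMSO, and their part in these values was not tested.

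**Figure D4:**
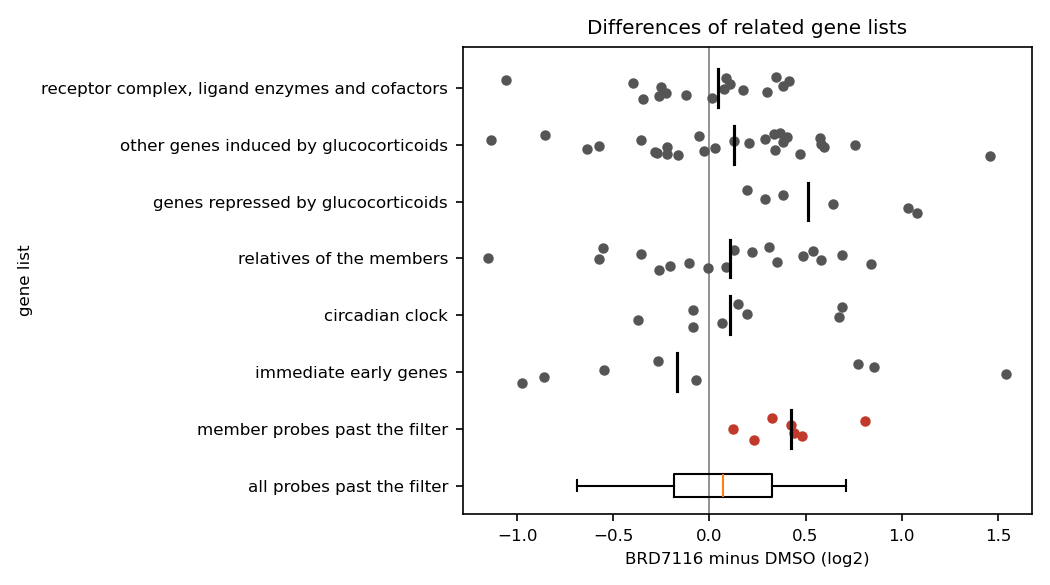
BRD7116 minus DMSO on the log2 scale for the measured genes of 6 related lists, for the 7 tested glucocorticoid probes and for all 8613 tested probes (box from the 25th to the 75th percentile, whiskers from the 5th to the 95th). Vertical bars are medians, from -0.17 for immediate early genes, whose median is above 0 within either chip, to 0.51 for genes repressed by glucocorticoids.

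Close relatives of the targets had means on both sides of 0. Of 25 listed, 18 were measured, 10 with a higher and 8 with a lower mean. Of the 18, 3 were detected on BRD7116 arrays only and entered through that group alone. In limma 0 passed, with 2 at an unadjusted p under 0.05. Fkbp4, the co-chaperone FKBP52 that opposes FKBP51 at the receptor, had -0.26 (standard error 0.18, adjusted p = 0.705), and 0.012 relative to all probes under median scaling. Fkbp8 had -0.006 (standard error 0.18, adjusted p = 0.994). The pair at an unadjusted p under 0.05, named after their values were seen, were Fkbp1a with 0.84 and Tsc22d1 with -1.15 (adjusted p = 0.689 for each). Fkbp1a was detected on 6 of the 7 arrays and Tsc22d1 on 3, only 1 of them with BRD7116. DMSO replicate 2 set their sizes too, with 0.15 and -0.29 when it was left out. Leaving out DMSO replicate 1 instead gave 1.53 and -2.00, and both passed (adjusted p = 0.0116 and 0.0141). Among 8 measured clock genes, 2 of them detected on BRD7116 arrays only, 5 had a higher mean. In limma 0 passed, with 1 at an unadjusted p under 0.05. That gene, Dbp, a clock output factor named after its value was seen, had 0.68 (adjusted p = 0.689), with 0.31 within chip 1 and 0.34 within chip 2. Dbp was detected on 4 of 5 BRD7116 arrays and 1 of 2 controls, and had 0.43 without DMSO replicate 2. The casein kinase gene Csnk1d, which marks PER proteins for turnover, had -0.09 (standard error 0.24, adjusted p = 0.8995), and Nfil3 had 0.06 (standard error 0.20, adjusted p = 0.913).

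Immediate early genes, which share the signal inputs of Dusp1, Zfp36 and Errfi1, also had means on both sides of 0. Of 8 measured, 3 were on the higher side and 5 on the lower, with a median of -0.17. The sign of that median turned, to 0.08 within chip 1, 0.036 within chip 2, 0.055 without DMSO replicate 2 and 0.033 relative to all probes under median scaling. Of the 8, 0 passed in limma, with 4 at an unadjusted p under 0.05. Klf10 had -0.97 with a standard error of 0.82 (adjusted p = 0.744), with -0.08 and -0.04 within chips 1 and 2. It was 0.06 without DMSO replicate 2 and -2.00 without DMSO replicate 1. Ier3 had -0.07 (standard error 0.20, adjusted p = 0.904). The 4 at an unadjusted p under 0.05, named after their values were seen, were Klf2 with 1.54 (adjusted p = 0.487), Mcl1 with 0.85, Klf6 with 0.77 and Junb with -0.86 (adjusted p = 0.689 for each of the last 3). Klf2 and Klf6 were each detected on 5 of 5 BRD7116 arrays and 1 of 2 controls, and Mcl1 on 4 of 5 BRD7116 arrays and 1 of 2 controls. Klf2, a transcription factor of quiescent lymphoid and endothelial cells, had 1.61 within chip 1 and 1.31 within chip 2. Junb, an AP-1 subunit, had -1.16 and -0.46. Without DMSO replicate 2 Mcl1 had 0.52, Klf6 0.50 and Junb -0.49. Without DMSO replicate 1 Klf2, Klf6 and Junb passed, with 1.52, 1.05 and -1.23 (adjusted p = 0.0299, 0.0425 and 0.0211).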

How the data were processed

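Total RNA was copied to biotin-labelled aRNA and read on BeadChips of the MouseRef-8 v2.0 type, per the labels. The authors deposited an intensity for each probe on each array, not normalized between arrays, together with its detection p-value. They also deposited processed log2 values, whose method is not given in the sources used here. Each column of these had the same median, 7.52.

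Groups came from titles and chips from descriptions. Intensities were corrected with neqc (offset 16, limma 3.58.1, R 4.3.3), quantile normalized and taken to log2. The test took probes detected (p under 0.05) on 2 arrays or more, each kept apart, with lmFit and eBayes over the 7 arrays, two-sided, with Benjamini-Hochberg adjustment over 8613 probes. A listed gene was read from its probe with the highest mean. Symbols came from the platform annotation (23978 of 25697 probes). The fit was tested on simulated data with independent noise on each array and no chip effect, so that test says nothing about the chips here. The number of arrays limits the precision.

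The genes, lists and alternatives were chosen with earlier results of these data known. Named besides the 9 genes were, for each list, genes past the threshold (4 at most) or, with none, its 2 of highest mean, and the 3 genes nearest in profile to a pair of probes. Arrays with the same replicate number sat on separate chips, so the numbers give no pairs.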

Additional observations from a re-analysis of the deposited data

Results flagged for a closer look

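Among the 5 BRD7116 arrays, 1 array was far from the remaining 4 in 7 of 39 probes examined, 3 of these among the 10 glucocorticoid probes. Chance flags about 1 in 20 groups of probes chosen without regard to their values. That rate does not apply here, since 6 of the 39 were picked for profiles like those of Dusp1 and Zfp36 and others were named after their values were seen. BRD7116 replicate 1, on the weak chip, was high for Dusp1 at 7.25 against 5.95 for the next array, and for Zfp36 at 8.72 against 8.38. The same array was high for Cers2 at 8.26 and for Arhgap19 at 7.27. BRD7116 replicate 4 was low for Tsc22d3 probe ILMN_3150811 at 5.40, while the same array was low for Junb at 6.45. BRD7116 replicate 3 was low for Ier3 at 6.90.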

How the results depend on the processing

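Of 25 alternative settings, Dusp1, Zfp36 and both Tsc22d3 probes had a higher mean with BRD7116 in all 25, with ranges of 0.24 to 1.32 for Dusp1 and 0.18 to 1.18 for Zfp36. So did Per1 probe ILMN_2813484 (0.007 to 0.25) and Errfi1 (0.13 to 0.35), the latter detected on no array. Per1 probe ILMN_2813487, also detected on no array, had a lower mean in all 25. A constant sign is thus not particular to detected probes. The 25 settings are not independent checks, since changed filters, the highest probe per gene and the trended prior cannot alter a probe's difference. Sgk1 was positive in 23 (-0.06 to 0.88), Fkbp5 in 22 (-0.008 to 0.86) and Nr3c1 in 9. Under median scaling Dusp1 still had every BRD7116 array above both controls and Zfp36 did not. The replicate block, chip as a fixed block and the arrays outside chip 3 gave the same difference for each probe by arithmetic, so they are 1 reading. With each, the median was 0.46 over the 7 tested glucocorticoid probes, and 0 probes passed the threshold. Deviations of chip partners correlated at 0.52 and 0.32; with 2 controls the values for equal numbers are the same with the sign turned and add nothing. The cause of the following changes was not tested.

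Probes past the adjusted p of 0.05, of any gene, numbered 1 with normexp, with an offset of 50, with no detection filter, with detection on all 7 arrays, with the authors' values and for arrays outside chip 1. They numbered 2 without background correction and with the trended prior, 329 outside chip 2, and 0 to 753 when 1 array was left out, the highest without DMSO replicate 1. Of the listed genes, Mt1 alone was past it and higher in each of those first 8 settings; 3 listed genes were outside chip 2, and 0 to 6 when 1 array was left out. Lower and past it were Med1 and Tsc22d1 outside chip 2 and, without DMSO replicate 1, these with Ncoa7, Tgfbr3 and Junb. The glucocorticoid median was 0.16 without background correction, 0.15 with the authors' values, 0.78 outside chip 2, and 0.064 without DMSO replicate 2 to 0.82 without DMSO replicate 1. With detection on all 7 arrays only 2 glucocorticoid probes remained, both with a higher mean. Probes with every BRD7116 array above the controls, and those below, numbered 229 and 77 under median scaling, 1129 and 1427 with no filter, and 168 and 207 with detection on all arrays. Fewer arrays gave 2086 and 1965 outside chip 1, before or after renormalization (added after the data were seen), 2948 and 2046 outside chip 2, and 1039 and 997 outside chip 3. Leaving out 1 array gave 557 to 2808 and 491 to 1952. A lone control is assumed to have the spread of the BRD7116 arrays. Signal over background limits the readings of Nr3c1, Per1 and Errfi1.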
